A study of Mus musculus with 8 samples.

Results

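The genes described here were 34 genes of the unfolded protein response (UPR) and the early secretory pathway, listed by name as genes of the pathway, with earlier results of these data known. They were matched by mouse GENCODE symbol in a count table of 25466 genes, and 34 of 34 passed the filter on low counts that left 17006 genes for testing. The libraries came from medullary thymic epithelial cells (mTECs), the thymic cells that display peripheral tissue antigens to developing T cells. The mice were wild type and, per the study's methods, of the BL6N6 strain and 4 to 6 weeks old, and no treatment or transgene distinguished the groups. Cells that were CD45neg, Epcampos and CDR1neg were sorted by surface Tspan8, a tetraspanin of late mTECs, and by surface MHC class II. This gave 4 subsets with 2 labelled biological replicates each: Tspan8negMHCIIlo, Tspan8negMHCIIhi, Tspan8posMHCIIhi and Tspan8posMHCIIlo. The number of mice behind a library was not stated, and each subset is a sort gate that can hold several kinds of mTEC. In such bulk RNA, fewer cells of a type and less RNA per cell cannot be told apart.

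The endoplasmic reticulum (ER) folds secreted and membrane proteins with chaperones such as BiP, encoded by Hspa5, and with disulfide isomerases. When unfolded protein accumulates, 3 membrane sensors signal to the nucleus: IRE1 (Ern1, with the mucosal paralog Ern2) splices the Xbp1 mRNA, ATF6 is cut to release a transcription factor, and PERK favours translation of Atf4 and then transcription of Ddit3, which encodes CHOP. Their targets refold proteins, degrade them through ER-associated degradation (ERAD) or enlarge the secretory pathway. Much of this regulation acts on splicing, cleavage and translation, so gene counts give transcript level and not sensor activity, and the spliced and unspliced forms of Xbp1 are summed in 1 count.

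A known sequence feature of UPR promoters is the ER stress response element (ERSE), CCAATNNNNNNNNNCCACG, to which NF-Y and ATF6 are known to bind. The 34 genes were listed as genes of this response, so the list is not independent of the element. RefSeq promoter windows (GRCm38.p6, 250 bases before to 50 after the start) were given for 28 of the 34 genes, and ERSE was searched on both strands. It was found in 8 of these 28 (28.6%), against 37 of 27025 genes in the promoter table (0.137%). The 8 were Hspa5, Hsp90b1, Calr, Canx, Creld2, Dnajc3, Pdia6 and Syvn1. Of the chaperone genes, 4 passed the test, given further below, of whether their Tspan8 difference depended on MHCII level. The windows below are theirs and that of Syvn1, which passed in no comparison. Each is read 5′ to 3′ on the strand that carries CCAAT, and capitals mark the CCAAT and CCACG parts.
Hspa5: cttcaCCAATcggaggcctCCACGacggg
Hsp90b1, nearer match: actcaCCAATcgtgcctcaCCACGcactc
Hsp90b1, farther match: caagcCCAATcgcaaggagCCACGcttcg
Calr: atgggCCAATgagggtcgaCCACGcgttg
Creld2: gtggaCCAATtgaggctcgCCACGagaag
Syvn1: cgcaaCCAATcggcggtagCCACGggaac

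The Hspa5 window lies at chr2:34772020-34772048 on the plus strand, and its match begins 65 bases before the RefSeq start, inside the span that GENCODE gives the gene (chr2:34771970-34777547). Hsp90b1, on the minus strand, held a pair of matches, at chr10:86705528-86705556 on the plus strand (107 bases before the start) and at chr10:86705633-86705661 on the minus strand (212 bases before it). The Calr window is at chr8:84847070-84847098 (plus strand, gene on the minus strand, 162 bases), the Creld2 window at chr15:88819515-88819543 (minus strand, gene on the plus strand, 126 bases) and the Syvn1 window at chr19:6046527-6046555 (plus strand, 44 bases). These lie upstream of their genes' GENCODE spans. The cores of the other UPR elements were less frequent: TGACGTG was found in Hspa5 and Sec24d (7.14% of the 28, against 2.22% of all genes) and TGATGNAA in Trib3 and Herpud1 (7.14% against 4.51%). A match is a description of letters in the window and not of binding.

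The 8 libraries held 1941518 to 7783841 estimated counts, the lowest and the highest both from Tspan8posMHCIIlo. Values below are TMM-scaled CPM, the counts divided by the effective library size. Tspan8 lay between 3.65 and 14.6 CPM in the Tspan8neg libraries and between 347 and 404 CPM in the Tspan8pos libraries, and Aire, the transcriptional regulator of antigen display, reached 2476 to 2658 CPM in Tspan8negMHCIIhi against 14.8 to 541 CPM elsewhere. H2-Ab1, an MHC class II chain, was higher in the MHCIIhi than in the MHCIIlo subset on both sides, although Tspan8negMHCIIlo (1700 to 2074 CPM) and Tspan8posMHCIIhi (2431 to 2619 CPM) lay near each other. Transcripts used as markers of cells outside the gate were present. The summed level of 8 thymocyte markers, none at 0 throughout, was 485 and 1347 CPM in Tspan8negMHCIIlo and 72.6 to 229 CPM in the other 6 libraries. That of 12 B cell and plasma cell markers was 1271 and 1989 CPM in Tspan8negMHCIIlo and 438 to 902 CPM elsewhere. Within MHCIIlo, 3 of the 12 were higher in Tspan8pos cells (Sdc1, Prdm1 and Cd79b) and 6 lower, beside 15.8% and 12.2% of all genes. The sum thus mixes opposite courses. Since mTECs transcribe genes of peripheral tissues, such transcripts need not come from other cells.

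The secretory pathway genes did not move as a block. Most genes of protein folding among the 34 had their highest transcript level in Tspan8negMHCIIhi. There 9 of 10 chaperone genes and 3 of 4 disulfide isomerase genes had their highest mean, while none of the 8 sensor and transcription factor genes did. Of those 8, 7 had their highest mean in Tspan8posMHCIIlo and the other, Ern1, in Tspan8negMHCIIlo. Over all 34 genes, Tspan8negMHCIIhi held the highest mean of 19, and Tspan8negMHCIIlo the lowest of 18. The share of all genes with their highest or lowest mean in each subset was not computed, so these counts stand without a background. The Tspan8negMHCIIhi libraries had counts for the most genes, 22705 and 23570 against 18173 to 21457 elsewhere.

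**Figure D1:**
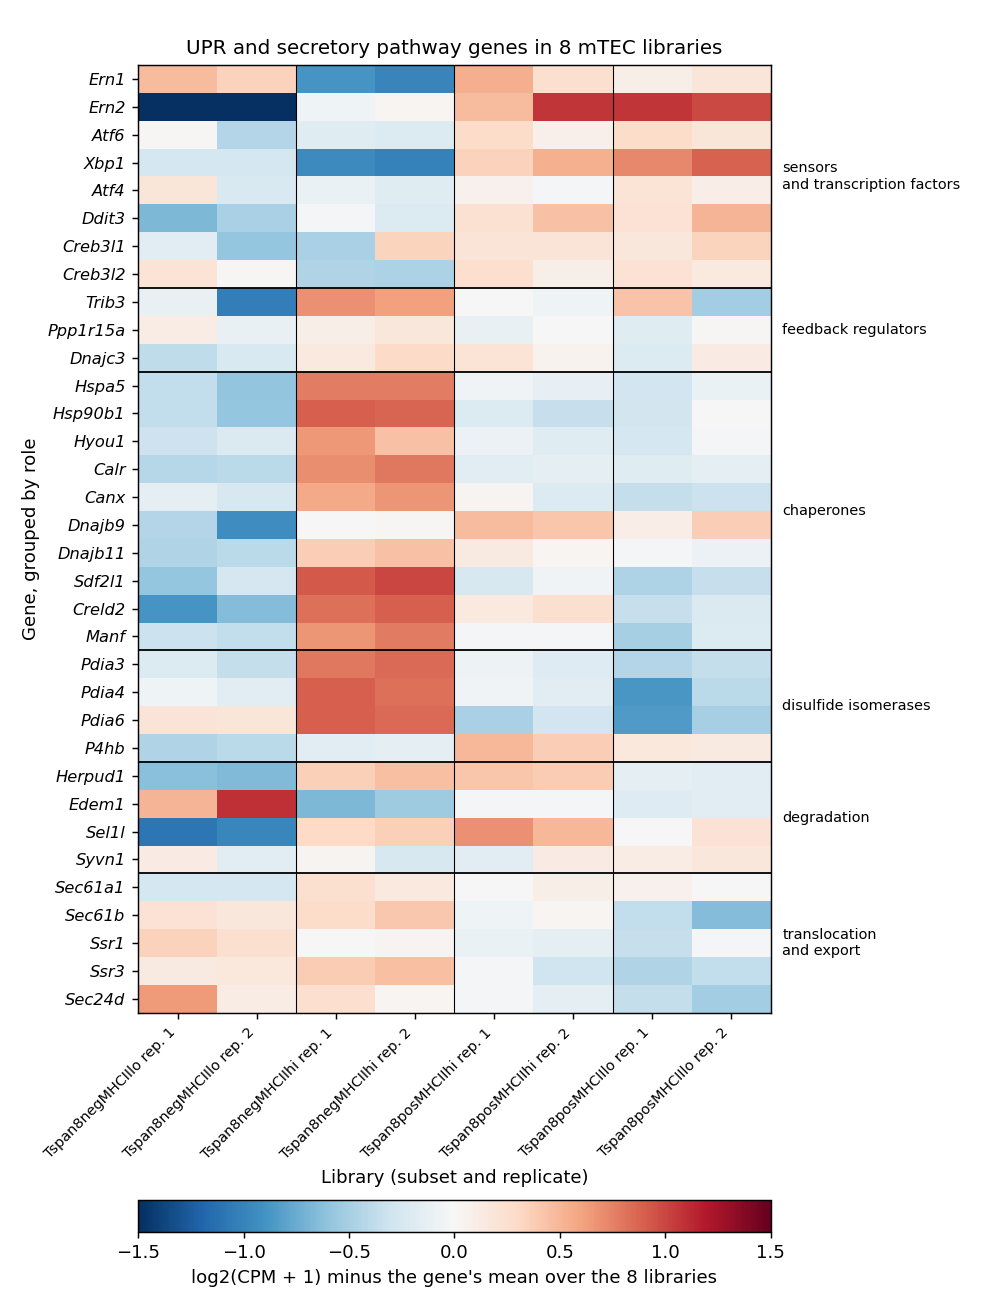
Transcript level of the 34 genes (rows, grouped by role) in the 8 libraries (columns), as log2(CPM + 1) minus the gene's mean over the libraries; red is above and blue below that mean, and the colour scale ends at 1.5 in each direction, which Ern2 exceeds in Tspan8negMHCIIlo. The chaperone and isomerase rows other than Dnajb9, which is near its mean, and P4hb, which is below it, are red in both Tspan8negMHCIIhi libraries, where Ern1, Xbp1 and Edem1 are blue.

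A gene was taken to pass at a Benjamini-Hochberg adjusted p under 0.01 over all 17006 genes, with no limit on the fold change. MHCIIhi against MHCIIlo in Tspan8neg cells gave the most calls: 20 of the 34 genes passed, 16 higher and 4 lower in MHCIIhi, where 29.4% of all genes passed (15.5% higher, 13.9% lower). Within MHCIIhi, Tspan8pos against Tspan8neg gave 16 calls, 4 higher and 12 lower, with 25% of all genes passing (15% higher, 10% lower). Both of these comparisons contain the Tspan8negMHCIIhi libraries, so they are not independent. Within MHCIIlo, Tspan8pos against Tspan8neg gave 11 calls, 7 higher and 4 lower, and 27.9% of all genes passed, a share close to that of the 34 genes. In Tspan8pos cells, MHCIIhi against MHCIIlo gave 1 call, Herpud1, where 9.07% of all genes passed (5.47% higher, 3.59% lower). At a fold change of at least 2 the calls were 12, 5, 4 and 0 in this order, beside 22.7%, 18.5%, 21.4% and 7.21% of all genes.

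**Figure D2:**
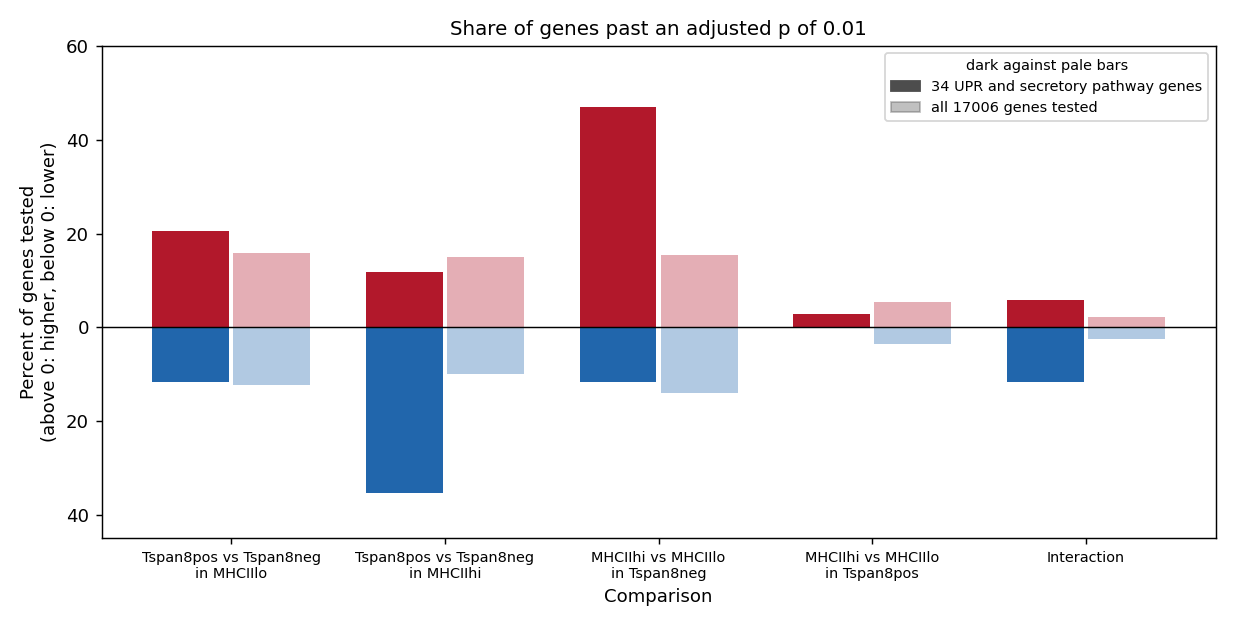
Percent of genes that passed an adjusted p of 0.01 in each comparison (higher above 0, lower below 0), for the 34 UPR and secretory pathway genes (dark bars) and all 17006 genes tested (pale bars). The 34 genes stand above the background among the genes higher in MHCIIhi of Tspan8neg cells (16 of 34 against 15.5%) and among those lower in Tspan8pos of MHCIIhi cells (12 of 34 against 10%).

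These counts moved when 1 library was left out. Within MHCIIlo the 11 calls became 5 and 4 without replicate 1 and replicate 2 of Tspan8posMHCIIlo, and within MHCIIhi the 16 became 10 without Tspan8negMHCIIhi replicate 2, 10 without Tspan8posMHCIIhi replicate 1 and 9 without its replicate 2. In Tspan8neg cells the 20 calls stayed between 15 and 19 over the 8 fits. Scaling by library totals in place of TMM moved the median log2 fold change of all genes from -0.03 to -0.20 within MHCIIlo and from -0.03 to -0.21 within MHCIIhi, and the higher and lower calls among the 34 then became 5 and 7, and 2 and 13.

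Among the sensors and transcription factors, Xbp1 and Ern1 transcripts were lowest where the chaperones were highest. Xbp1, the transcription factor that IRE1 activates by splicing, stood at 164 and 164 CPM in Tspan8negMHCIIlo and 102 and 97.5 CPM in Tspan8negMHCIIhi. It reached 252 and 287 CPM in Tspan8posMHCIIhi and 326 and 367 CPM in Tspan8posMHCIIlo. No libraries of different subsets overlapped. Xbp1 was 2.70-fold higher in Tspan8pos than in Tspan8neg cells within MHCIIhi (log2 1.44 ± 0.13 SE, adjusted p = 1.15e-05) and 2.11-fold higher within MHCIIlo (1.08 ± 0.13, 8.24e-05), and these calls held under each alternative run. In Tspan8neg cells it was 1.65-fold lower in MHCIIhi (log2 -0.72 ± 0.13, adjusted p = 0.00134), a call lost without either Tspan8negMHCIIhi library. In Tspan8pos cells the difference had a log2 value of -0.37 ± 0.13 and did not pass (adjusted p = 0.0813).

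Ern1, which encodes the sensor IRE1α, was at 32.9 and 30.4 CPM in Tspan8negMHCIIhi, 85.7 and 78 CPM in Tspan8negMHCIIlo, 90.2 and 72.7 CPM in Tspan8posMHCIIhi, and 65.4 and 69.9 CPM in Tspan8posMHCIIlo. The Tspan8negMHCIIhi libraries lay apart from the rest, among which Tspan8negMHCIIlo and Tspan8posMHCIIhi overlapped. Ern1 was 2.58-fold higher in Tspan8pos cells within MHCIIhi (log2 1.37 ± 0.16 SE, adjusted p = 5.01e-05) and 2.59-fold lower in MHCIIhi within Tspan8neg cells (-1.37 ± 0.16, 5.63e-05). Within MHCIIlo its log2 difference was -0.27 ± 0.15 (adjusted p = 0.193). Its paralog Ern2, known from mucus-secreting epithelium, was scarce: it had 0 and 1 counts in the Tspan8negMHCIIlo libraries, 13 and 23 in Tspan8negMHCIIhi, 22 and 35 in Tspan8posMHCIIhi and 13 and 49 in Tspan8posMHCIIlo. Against a floor of 3 counts per library in Tspan8negMHCIIlo, Ern2 was at least 3.65-fold higher in Tspan8negMHCIIhi and at least 8.93-fold higher in Tspan8posMHCIIlo. Its call between the MHCIIlo subsets held under each alternative, and that between the Tspan8neg subsets was lost without Tspan8negMHCIIlo replicate 1 or Tspan8negMHCIIhi replicate 2, with DESeq2 and in thinned counts.

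For the PERK branch, transcripts of Atf4 and Ddit3 were read, which do not measure PERK activity. Atf4, the main translational target of PERK, was at 463 and 348 CPM in Tspan8negMHCIIlo, 380 and 358 CPM in Tspan8negMHCIIhi, 426 and 399 CPM in Tspan8posMHCIIhi, and 471 and 436 CPM in Tspan8posMHCIIlo. The Tspan8negMHCIIlo replicates spanned nearly the whole range of the others, and Atf4 passed in no comparison, with log2 differences between -0.14 and 0.16. Ddit3, the CHOP gene, rose from 36.8 and 42.0 CPM in Tspan8negMHCIIlo to 68.7 and 84.5 CPM in Tspan8posMHCIIlo (1.97-fold, log2 0.98 ± 0.17 SE, adjusted p = 0.000861), a call lost without Tspan8posMHCIIlo replicate 2. In Tspan8negMHCIIhi it was at 58.0 and 51.3 CPM and in Tspan8posMHCIIhi at 69.5 and 80.5 CPM, differences that did not pass at 0.01 (adjusted p = 0.0407 between these and 0.0419 between the Tspan8neg subsets). Ddit3 overlaps another GENCODE gene of the same name on its own strand, and Gm4189 and Mars on the opposite strand. Reads in shared exons may not be told apart.

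Of the remaining transcription factors, Creb3l2, a membrane-bound factor of the ATF6 kind, was 1.57-fold higher in Tspan8pos cells within MHCIIhi (adjusted p = 0.00382) and 1.51-fold lower in MHCIIhi within Tspan8neg cells (adjusted p = 0.00614). The first call was lost when any 1 of the 4 MHCIIhi libraries was left out, with DESeq2, with library totals and in thinned counts. The second was lost when any 1 library but Tspan8negMHCIIlo replicate 2 was left out, and with DESeq2, its size factors, no filter on low counts, the 4 libraries alone or thinned counts. Creb3l1 (7.78 to 15.6 CPM) and Atf6 (47.4 to 78.1 CPM) passed in no comparison. The 3 feedback regulators passed in none either. These were Ppp1r15a, which restores translation after PERK signalling (546 to 700 CPM), Dnajc3, a cochaperone that inhibits PERK (66.6 to 106 CPM), and Trib3, an inhibitor of CHOP and ATF4 (3.54 to 13.9 CPM). Trib3 had a log2 difference of 1.30 ± 0.42 SE between the Tspan8neg subsets at an adjusted p of 0.0274, and Dnajc3 one of 0.53 ± 0.15 at 0.0165.

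**Figure D3:**
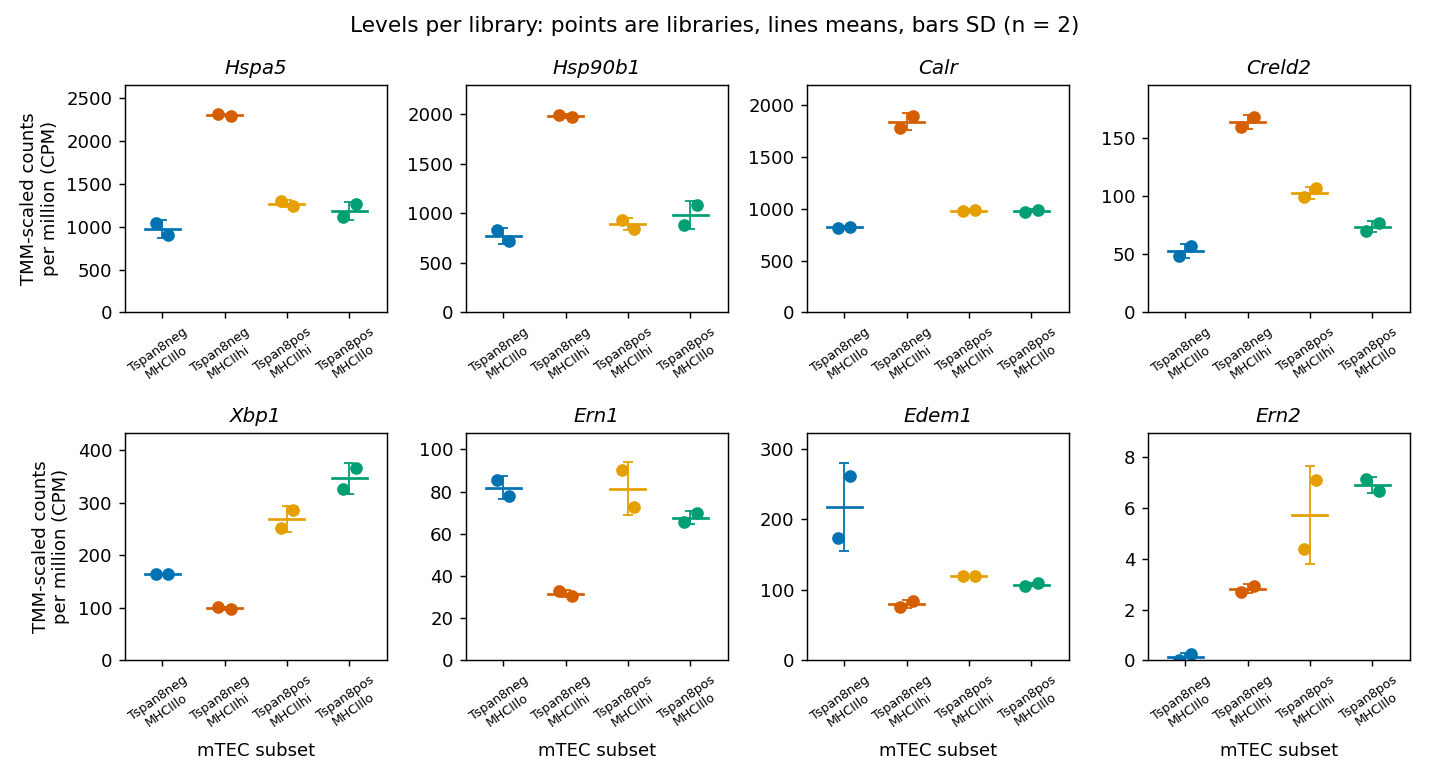
CPM of 8 genes in each library (points) of the 4 subsets, with the mean (line) and SD (bar) of 2 libraries. Hspa5, Hsp90b1, Calr and Creld2 are highest in Tspan8negMHCIIhi, where Xbp1, Ern1 and Edem1 have their lowest values, and Ern2 is near 0 in Tspan8negMHCIIlo.

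The chaperones formed the most uniform group. All 10 tested were higher in MHCIIhi than in MHCIIlo of Tspan8neg cells, beside 15.5% of all genes. The median log2 fold change was 1.12 (range 0.69 to 1.64) beside -0.04 over all genes. The call of Dnajb9 there depended on single libraries, as given below. Within MHCIIhi, 8 of 10 were lower in Tspan8pos cells, beside 10% of all genes, with a median of -0.72 beside -0.03. None of the 10 passed between the Tspan8pos subsets, where 9.07% of all genes did (median 0.17, beside 0.01). Dnajb9 alone passed as higher between the MHCIIlo subsets, beside 15.8% of all genes (group median 0.27, beside -0.03). Per kilobase of exon, Calr (400 CPM per kb over the 8 libraries), Hspa5 (339) and Hsp90b1 (287) had the highest levels of the 34 genes.

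Hspa5, the BiP gene, was at 2313 and 2297 CPM in Tspan8negMHCIIhi, 1044 and 899 CPM in Tspan8negMHCIIlo, 1299 and 1238 CPM in Tspan8posMHCIIhi, and 1112 and 1260 CPM in Tspan8posMHCIIlo. It thus stood apart in Tspan8negMHCIIhi, and the Tspan8pos subsets overlapped. The level in MHCIIhi of Tspan8neg cells was 2.37-fold that in MHCIIlo (log2 1.25 ± 0.12 SE, adjusted p = 2.21e-05), and in Tspan8pos cells within MHCIIhi Hspa5 was 1.82-fold lower (-0.86 ± 0.12, 0.000259). Between the MHCIIlo subsets its log2 difference was 0.29 ± 0.12 and did not pass (adjusted p = 0.0818).

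Hsp90b1, the ER form of HSP90 (GRP94), was at 1996 and 1969 CPM in Tspan8negMHCIIhi, 829 and 717 CPM in Tspan8negMHCIIlo, 935 and 846 CPM in Tspan8posMHCIIhi, and 888 and 1083 CPM in Tspan8posMHCIIlo. Between the Tspan8neg subsets it differed 2.57-fold (adjusted p = 2.43e-05), and within MHCIIhi it was 2.23-fold lower in Tspan8pos cells (6.44e-05). Calr, the calcium-binding lectin chaperone calreticulin, was at 1778 and 1893 CPM in Tspan8negMHCIIhi, 812 and 825 CPM in Tspan8negMHCIIlo, 974 and 988 CPM in Tspan8posMHCIIhi, and 967 and 988 CPM in Tspan8posMHCIIlo. It was 2.24-fold higher in MHCIIhi of Tspan8neg cells (1.57e-05) and 1.87-fold lower in Tspan8pos cells within MHCIIhi (8.02e-05). The Hspa5, Hsp90b1 and Calr calls in these comparisons held under each other fit and without any 1 library, but those of Hspa5 and Calr within MHCIIhi lay under a fold change of 2.

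Creld2, an ER protein induced by the UPR, had the smallest adjusted p of the group. It was at 160 and 168 CPM in Tspan8negMHCIIhi, 48.3 and 57.1 CPM in Tspan8negMHCIIlo, 99.4 and 107 CPM in Tspan8posMHCIIhi, and 70.4 and 77.0 CPM in Tspan8posMHCIIlo. The 4 subsets did not overlap. Creld2 was 3.11-fold higher in MHCIIhi of Tspan8neg cells (log2 1.64 ± 0.14 SE, adjusted p = 9.71e-06) and 1.59-fold lower in Tspan8pos cells within MHCIIhi (adjusted p = 0.00264), the latter lost when any 1 of the 4 MHCIIhi libraries was left out. Between the Tspan8pos subsets it differed by 0.48 ± 0.14 on the log2 scale, with an adjusted p of 0.0416.

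Sdf2l1, a partner of BiP cochaperones, was at 56.1 and 59.3 CPM in Tspan8negMHCIIhi, 19.1 and 24.3 CPM in Tspan8negMHCIIlo, 24.5 and 28 CPM in Tspan8posMHCIIhi, and 20.9 and 22.7 CPM in Tspan8posMHCIIlo. It was 2.65-fold higher in MHCIIhi of Tspan8neg cells (adjusted p = 0.000115) and 2.20-fold lower in Tspan8pos cells within MHCIIhi (0.000399). Manf, a secreted ER stress factor, was at 135 and 146 CPM in Tspan8negMHCIIhi, 67.7 and 65.5 CPM in Tspan8negMHCIIlo, 83.2 and 83.3 CPM in Tspan8posMHCIIhi, and 59.9 and 73.2 CPM in Tspan8posMHCIIlo. It differed 2.11-fold between the Tspan8neg subsets (adjusted p = 0.000144). Within MHCIIhi it was 1.68-fold lower in Tspan8pos cells (0.00145), a call lost without Tspan8negMHCIIhi replicate 2 or either Tspan8posMHCIIhi library. Sdf2l1 and Manf therefore shared the level pattern of Hspa5, although Manf overlaps Rbm15b on its own strand, so that its count may hold reads of both.

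Hyou1, a large HSP70-like chaperone (412 to 479 CPM in Tspan8negMHCIIhi against 244 to 300 CPM elsewhere), and Canx, the membrane-bound lectin calnexin (315 and 336 against 165 to 219 CPM), passed between the Tspan8neg subsets, at folds of 1.76 and 1.75, and within MHCIIhi. Their calls within MHCIIhi were lost without Tspan8posMHCIIhi replicate 2, and that of Hyou1 also without Tspan8negMHCIIhi replicate 1 or Tspan8posMHCIIhi replicate 1, and that of Canx also without Tspan8negMHCIIhi replicate 2. Of the J-domain cochaperones of BiP, Dnajb11 also had its highest values in Tspan8negMHCIIhi, and Dnajb9 departed from this pattern. Dnajb11 was at 137 and 143 CPM in Tspan8negMHCIIhi, 76.4 and 79.2 CPM in Tspan8negMHCIIlo, 116 and 108 CPM in Tspan8posMHCIIhi, and 103 and 98.6 CPM in Tspan8posMHCIIlo. It passed between the Tspan8neg subsets alone (log2 0.84 ± 0.13 SE, adjusted p = 0.000371). Within MHCIIhi the log2 difference of Dnajb11 was -0.32 ± 0.12 SE, with no overlap of libraries, and did not pass (adjusted p = 0.0618). Dnajb9, a known XBP1 target, had its highest values in Tspan8posMHCIIhi (92.2 and 88.4 CPM) and its lowest in Tspan8negMHCIIlo (48.6 and 34.2 CPM), and was 1.92-fold higher in Tspan8pos cells within MHCIIlo (adjusted p = 0.00182), a call lost without Tspan8posMHCIIlo replicate 2 and when only the 4 libraries of the comparison were fitted. Its call between the Tspan8neg subsets (adjusted p = 0.00916) was lost when any 1 of 7 libraries was left out, all but Tspan8negMHCIIlo replicate 1, and with the 4 libraries alone or thinned counts.

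The disulfide isomerases were divided. Pdia3, Pdia4 and Pdia6 were higher in MHCIIhi of Tspan8neg cells and lower in Tspan8pos cells within MHCIIhi, whereas P4hb, which encodes the founding member PDI and a subunit of collagen prolyl hydroxylase, was higher in Tspan8pos cells at both MHCII levels. Pdia3 was at 747 and 779 CPM in Tspan8negMHCIIhi, 377 and 337 CPM in Tspan8negMHCIIlo, 409 and 378 CPM in Tspan8posMHCIIhi, and 319 and 337 CPM in Tspan8posMHCIIlo. It differed 2.14-fold between the Tspan8neg subsets (log2 1.10 ± 0.12 SE, adjusted p = 5.20e-05). Pdia6, which acts on BiP clients, was at 305 and 296 CPM in Tspan8negMHCIIhi, 187 and 186 CPM in Tspan8negMHCIIlo, 117 and 134 CPM in Tspan8posMHCIIhi, and 90.7 and 115 CPM in Tspan8posMHCIIlo.

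Pdia6 thus separated the Tspan8 sorts at each MHCII level: it was 2.39-fold lower in Tspan8pos cells within MHCIIhi (adjusted p = 5.78e-05) and 1.78-fold lower within MHCIIlo (0.00111). The latter call was lost without Tspan8posMHCIIlo replicate 1, and that of Pdia6 between the Tspan8neg subsets (1.61-fold, 0.00283) without either Tspan8negMHCIIhi library. Pdia4, at 273 and 260 CPM in Tspan8negMHCIIhi against 79.2 to 141 CPM elsewhere, differed 1.98-fold between the Tspan8neg subsets (0.000547) and 1.97-fold within MHCIIhi (0.000593), the latter lost without Tspan8posMHCIIhi replicate 2. P4hb was at 296 and 307 CPM in Tspan8negMHCIIlo and 365 and 367 CPM in Tspan8negMHCIIhi, against 574 and 527 CPM in Tspan8posMHCIIhi and 453 and 447 CPM in Tspan8posMHCIIlo. Its log2 differences between Tspan8pos and Tspan8neg cells were 0.59 ± 0.12 SE within MHCIIhi (adjusted p = 0.00244) and 0.58 ± 0.12 within MHCIIlo (0.00266), but neither passed when library totals replaced TMM. Nor did the former without Tspan8posMHCIIhi replicate 1 or either Tspan8negMHCIIhi library, or the latter without either Tspan8posMHCIIlo library or with the 4 libraries of the comparison alone.

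**Figure D4:**
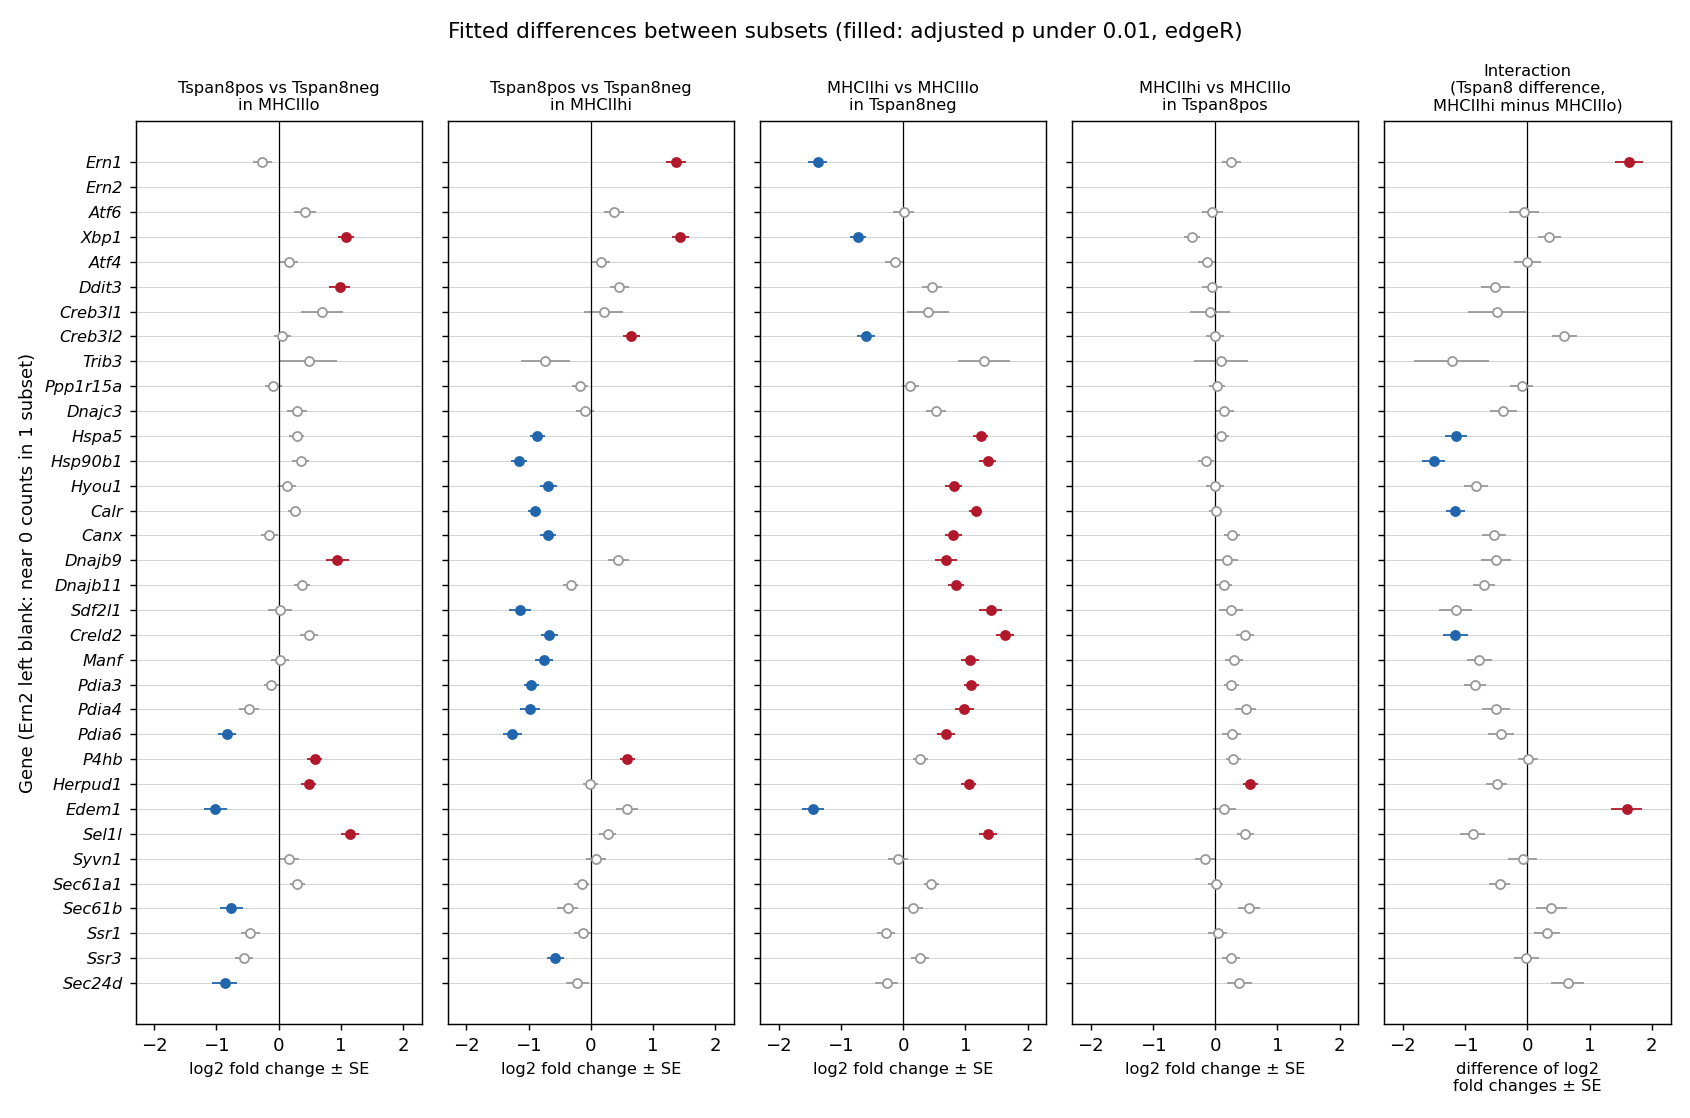
Fitted log2 fold change (point) with its SE (bar) of each gene in the 4 comparisons, and in the fifth panel the Tspan8 difference in MHCIIhi minus that in MHCIIlo; filled red points passed as higher and filled blue points as lower at an adjusted p under 0.01 (edgeR). Chaperones and isomerases lie to the right of 0 between the Tspan8neg subsets and mostly to the left within MHCIIhi, and 1 gene, Herpud1, is filled between the Tspan8pos subsets. Ern2 is left blank because its fitted fold rests on 0 and 1 counts in Tspan8negMHCIIlo.

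The 4 ERAD genes did not share 1 course, although Sel1l and Herpud1 passed in the same direction between the Tspan8neg subsets and within MHCIIlo. Sel1l, the scaffold of the HRD1 ubiquitin ligase complex, was at 84.5 and 90.8 CPM in Tspan8negMHCIIlo, 221 and 231 CPM in Tspan8negMHCIIhi, 291 and 255 CPM in Tspan8posMHCIIhi, and 179 and 208 CPM in Tspan8posMHCIIlo. Tspan8negMHCIIlo was the subset that stood apart. Sel1l was 2.58-fold higher in Tspan8negMHCIIhi (adjusted p = 2.84e-05) and 2.22-fold higher in Tspan8posMHCIIlo (8.30e-05), and both calls held under each alternative run. Between the Tspan8pos subsets its log2 difference, MHCIIhi against MHCIIlo, was 0.49 ± 0.14 SE and did not pass (adjusted p = 0.0329). Syvn1, which encodes HRD1 itself, ranged from 130 to 174 CPM over the 8 libraries and passed in no comparison.

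Herpud1, an HRD1 cofactor and UPR target, was at 164 and 161 CPM in Tspan8negMHCIIlo, 326 and 349 CPM in Tspan8negMHCIIhi, 339 and 332 CPM in Tspan8posMHCIIhi, and 229 and 226 CPM in Tspan8posMHCIIlo. It was higher in MHCIIhi on both sides, 2.08-fold in Tspan8neg cells (log2 1.05 ± 0.12 SE, adjusted p = 5.73e-05) and 1.48-fold in Tspan8pos cells (0.56 ± 0.12, 0.00846). The second call was lost when any 1 of the 6 Tspan8negMHCIIhi, Tspan8posMHCIIhi and Tspan8posMHCIIlo libraries was left out. Within MHCIIlo Herpud1 was 1.40-fold higher in Tspan8pos cells (0.00836), a call lost when any 1 of the 8 libraries was left out, with library totals, with the 4 libraries alone and in thinned counts. Within MHCIIhi the Tspan8 sorts overlapped.

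Edem1, which extracts misfolded glycoproteins from the folding cycle, ran opposite to the chaperones between the Tspan8neg subsets. It was at 174 and 262 CPM in Tspan8negMHCIIlo, 76.1 and 84.0 CPM in Tspan8negMHCIIhi, 120 and 119 CPM in Tspan8posMHCIIhi, and 106 and 109 CPM in Tspan8posMHCIIlo. Edem1 was 2.72-fold lower in MHCIIhi of Tspan8neg cells (log2 -1.44 ± 0.18 SE, adjusted p = 0.000105) and 2.02-fold lower in Tspan8pos cells within MHCIIlo (-1.02 ± 0.18, 0.00110). The latter call was lost without either Tspan8posMHCIIlo library. Its log2 difference within MHCIIhi, Tspan8pos against Tspan8neg, was 0.58 ± 0.18 SE and did not pass (adjusted p = 0.0263). Nor did that between the Tspan8pos subsets (0.15 ± 0.18, 0.649). The replicate with more Edem1, Tspan8negMHCIIlo replicate 2, was also the one with more thymocyte markers (1347 against 485 CPM), and their part in the result was not tested. Without this replicate the log2 values of Edem1 were -1.13 between the Tspan8neg subsets and -0.69 within MHCIIlo.

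Genes of translocation and export differed less. None of the 5 passed between the Tspan8neg subsets, where 29.4% of all genes did (median log2 fold change 0.16, beside -0.04 over all genes). Within MHCIIlo, 2 were lower in Tspan8pos cells, beside 12.2% of all genes. These were Sec61b, a translocon subunit (1.69-fold, adjusted p = 0.00674), and Sec24d, a cargo adaptor of COPII vesicles (1.82-fold, 0.00474). Sec61b lost its call when any 1 of the 8 libraries was left out, when only the 4 libraries of the comparison were fitted, when low counts were not filtered and with DESeq2. Sec24d lost its call without either Tspan8posMHCIIlo library or Tspan8negMHCIIlo replicate 1, and with the 4 libraries alone. Within MHCIIhi, Ssr3, of the translocon-associated complex, was 1.48-fold lower in Tspan8pos cells (0.00808), a call lost when any 1 of the 6 libraries other than those of Tspan8negMHCIIlo was left out and in thinned counts. Sec61a1, which forms the channel (233 to 330 CPM), and Ssr1 (51.7 to 84.0 CPM) passed in no comparison.

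Whether the Tspan8 difference depended on MHCII level was tested as an interaction in the same edgeR fit. It passed for 6 of the 34 genes, where 4.69% of all genes passed (2.3% higher, 2.39% lower), and each of the 6 differed by at least 2-fold, as did 4.6% of all genes. For Hspa5, Hsp90b1, Calr and Creld2 the log2 difference of Tspan8pos from Tspan8neg was lower in MHCIIhi than in MHCIIlo, by between -1.15 (Hspa5) and -1.51 (Hsp90b1). For Ern1 and Edem1 it was higher, by 1.64 and 1.59. Xbp1, which was higher in Tspan8pos cells at both levels, had an interaction of 0.36 ± 0.19 SE that did not pass (adjusted p = 0.256), as had Sdf2l1 (-1.15 ± 0.26, 0.0161) and Sel1l (-0.88 ± 0.20, 0.0150). The count fell to 3 without Tspan8negMHCIIhi replicate 2, 2 without Tspan8posMHCIIhi replicate 1, 3 without its replicate 2 and 2 without Tspan8posMHCIIlo replicate 2, and Hsp90b1 alone passed in each fit.

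The genes with an ERSE match were read against these differences as a description. Of the 8, 6 were higher in MHCIIhi of Tspan8neg cells and the same 6 were lower in Tspan8pos cells within MHCIIhi (Hspa5, Hsp90b1, Calr, Canx, Creld2 and Pdia6). Their median log2 fold changes were 0.99 and -0.78. Both comparisons contain the Tspan8negMHCIIhi libraries, so the second is not a separate result. Over all genes, 15.5% were higher and 13.9% lower in the former comparison, and 15% and 10% in the latter. Of the 20 genes whose window held no match, 7 were higher and 4 lower in the former comparison (median 0.28), and 4 higher and 4 lower in the latter (median -0.07). Pdia3, Pdia4, Sdf2l1 and Dnajb11 were among those with no match that were higher in Tspan8negMHCIIhi than in Tspan8negMHCIIlo. Of the 6 genes without a promoter window, 3 were higher and 0 lower in the former comparison, and 0 higher and 2 lower in the latter. All 10 chaperones were higher in the former comparison, whether or not a match was found. Match and role cannot be told apart here, and the part of the element was not tested.

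Fewer of the other genes of these pathways passed. Of 21 tested ER chaperones and oxidoreductases outside the 34, 3 were higher and none lower in MHCIIhi of Tspan8neg cells (median log2 fold change 0.28), among them the oxidases that recharge PDI, Ero1l (1.18 ± 0.16 SE, adjusted p = 0.000179) and Ero1lb (0.72 ± 0.15, 0.00269). Within MHCIIhi, 2 of the 21 were higher and none lower in Tspan8pos cells, beside 15% and 10% of all genes. Their median there was 0.10, against -0.72 for the 10 chaperones among the 34. The mean summed level of this list, Agr2 included, was 1086 CPM in Tspan8negMHCIIlo and 1314 CPM in Tspan8negMHCIIhi. It was 1401 CPM in Tspan8posMHCIIhi and 1393 CPM in Tspan8posMHCIIlo. Within this list Agr2, an isomerase of mucin-producing cells, was higher in Tspan8pos cells, by 6.0 ± 0.33 within MHCIIlo and 4.79 ± 0.26 within MHCIIhi on the log2 scale. Of 17 ERAD genes, 2 were higher between the Tspan8neg subsets (Derl3, 1.67 ± 0.36, and Selenos, 0.64 ± 0.16), as were 2 of 29 genes of translocon, signal peptidase and oligosaccharyltransferase (Sec11c and Stt3a). Vesicle coats and cargo receptors gave 4 higher and 1 lower of 28, with Surf4 (0.91 ± 0.13) and Lman1 (0.94 ± 0.14) in front. Each share between the Tspan8neg subsets lay below the 29.4% of all genes.

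Among 17 other UPR sensors and transcription factors, 2 were higher and 6 lower in MHCIIhi of Tspan8neg cells, beside 15.5% and 13.9% of all genes. Atf3, a stress-induced repressor, was lower (log2 -1.66 ± 0.17 SE, adjusted p = 2.91e-05), and Atf5 was higher (1.38 ± 0.18, 0.000134). Of 26 targets of Atf4 and the integrated stress response, 7 were higher and 2 lower there, beside 15.5% and 13.9% of all genes. The total was near the 29.4% of all genes, but the calls leaned to the higher side. The smallest adjusted p were those of the secreted factors Gdf15 (3.21 ± 0.21, 1.76e-06) and Fgf21 (2.27 ± 0.14, 1.47e-06). In Tspan8pos against Tspan8neg cells this list gave 5 higher and 7 lower within MHCIIlo, where 15.8% and 12.2% of all genes passed, and 4 and 6 within MHCIIhi, where 15% and 10% did. Nupr1, a stress-induced chromatin protein, was higher in Tspan8pos cells and Phgdh, the entry enzyme of serine synthesis, lower, in both.

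Of 15 cytosolic heat shock genes, none was higher and 4 were lower in MHCIIhi of Tspan8neg cells, beside 15.5% and 13.9% of all genes. The total was near the 29.4% of all genes, but the calls were all on the lower side. The median log2 fold change was -0.33 beside -0.04, and Hspb1, a small heat shock protein, was lower by -1.96 ± 0.13 SE. Immediate early genes, which respond to cell isolation, gave 0 higher and 9 lower of 15 in this comparison, beside 13.9% of all genes lower, with Fos at -1.54 ± 0.15 and Jun at -1.60 ± 0.16. Their summed level was 18066 and 15673 CPM in Tspan8negMHCIIlo and 9081 and 9070 CPM in Tspan8negMHCIIhi. It was 12317 and 13679 CPM in Tspan8posMHCIIhi and 15603 and 17548 CPM in Tspan8posMHCIIlo. The subset in which 9 of the 10 chaperone genes were highest was thus the one with the lowest immediate early transcripts. Their part in the result was not tested.

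Cell type markers moved with the subsets as well. Over all genes, 15.5% were higher and 13.9% lower in MHCIIhi of Tspan8neg cells. In Tspan8pos against Tspan8neg cells the shares were 15.8% and 12.2% within MHCIIlo, and 15% and 10% within MHCIIhi. Of 8 thymocyte markers, 6 were lower in MHCIIhi of Tspan8neg cells (Cd3g, log2 -4.26 ± 0.48 SE), and of 12 B cell and plasma cell markers, 5 were lower and 2 higher (Jchain -4.21 ± 0.41, Irf4 2.14 ± 0.15). Of 7 tested markers of dendritic cells and macrophages, 4 were higher in MHCIIhi, with a summed level of 371 and 436 CPM in Tspan8negMHCIIhi, 429 and 447 CPM in Tspan8posMHCIIhi, 179 and 180 CPM in Tspan8posMHCIIlo, and 54.2 and 116 CPM in Tspan8negMHCIIlo. All 8 Tuft mTEC markers were higher in Tspan8pos cells at both MHCII levels, with summed levels of 6811 and 6931 CPM in Tspan8posMHCIIlo, the subset with the highest Xbp1, and of 1271 and 1751 CPM in Tspan8negMHCIIlo, 1097 and 1288 CPM in Tspan8posMHCIIhi, and 165 and 191 CPM in Tspan8negMHCIIhi. Goblet and secretory epithelium markers, of which 6 of 9 tested were higher in Tspan8pos cells within MHCIIlo and 8 of 9 within MHCIIhi, summed to 10714 and 10840 CPM in Tspan8posMHCIIhi and to 2799 to 5611 CPM elsewhere. Fibroblast and endothelium markers summed to 65.6 to 240 CPM and cortical epithelial markers to 136 to 629 CPM. The part of any of these cells in the differences above was not tested.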

How the data were processed

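RNA of FACS-sorted mTECs was measured in 8 libraries. The authors deposited estimated counts per gene, not normalized, from Salmon 1.8.0 on a Gencode mouse transcriptome (mm10), and their notes also name FastQC and DESeq2 1.30.0. The labels name a stranded kit and the methods tagmented cDNA, so counts of genes overlapping on opposite strands are uncertain. GENCODE symbols were matched to 25336 of 25466 identifiers (99.49%). The 34 genes, their roles and the other lists were chosen with earlier results of these data known.

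Counts were fitted in edgeR 4.0.16 (R 4.3.3, limma 3.58.1) with TMM scaling, filterByExpr and quasi-likelihood tests, with a mean for each of 4 subsets over all 8 libraries, two-sided, and Benjamini-Hochberg adjustment over 17006 genes. The common biological coefficient of variation was 15.5%. Labels call the replicates biological and do not say whether they came from separate mice, so p-values measure the spread between these libraries. Library totals of 1941518 to 7783841 bound counting precision, and floors cover counting error only. On simulated data for the comparison within MHCIIlo (16247 genes), 1 of 67 genes changed by a log2 of 0.5, 28 of 67 changed by 1 and 57 of 66 changed by 2 were recovered, with 7 false calls. A change that did not pass is therefore not shown to be absent. The simulation changed 200 genes, whereas 27.9% of all genes passed in this comparison of the data. The recovered shares are thus not the sensitivity of the reported test.

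Values were given library by library for Xbp1, Atf4, Ddit3, Hspa5, Ern2 and the 15 genes with the smallest adjusted p in any comparison. The other genes were given by range, with library values of P4hb, Pdia4, Dnajb9 and Canx and folds of further genes added after their values were seen, and up to 2 genes per list and comparison were named by smallest adjusted p. Alternatives were DESeq2 1.42.0, its size factors, library totals, other filters, thinned counts, the 4 libraries of a comparison alone, a replicate block, other thresholds and leaving out each library. Promoter windows were searched in Python 3.11.15.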

Additional observations from a re-analysis of the deposited data

Results flagged for a closer look

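The difference between Tspan8pos and Tspan8neg cells was itself different at the 2 MHCII levels for 6 genes, by the interaction test in edgeR (adjusted p under 0.01 over all genes). The Tspan8 log2 difference in MHCIIhi minus that in MHCIIlo was -1.51 for Hsp90b1 (adjusted p = 0.000884), -1.16 for Calr (0.00117), -1.15 for Hspa5 (0.00221) and -1.16 for Creld2 (0.00446). It was 1.64 for Ern1 (0.00121) and 1.59 for Edem1 (0.00305). Of the 8 fits without 1 library, the calls of Creld2 and Edem1 were each lost in 6. That of Hspa5 was lost in 3, that of Ern1 in 2, that of Calr in 1 and that of Hsp90b1 in 0. The values kept their sign in these fits, from -1.28 to -1.02 for Creld2 and from 1.28 to 1.89 for Edem1. Hsp90b1 was lower in both Tspan8posMHCIIhi libraries than in either Tspan8negMHCIIhi library, and its level in the 4 MHCIIlo libraries was 717 to 1083 CPM. Groups held 2 libraries, so no single library was tested for standing apart from its group.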

How the results depend on the processing

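The number of the 34 genes that passed stayed within 1.5 times the reported count under most settings. Within MHCIIlo the 11 calls became 6 when only the 4 libraries of the comparison were fitted and 4 with a fold change of at least 2, and ranged from 4 to 9 without 1 library. Within MHCIIhi the 16 became 5 with that fold limit and 9 to 17 without 1 library. In Tspan8neg cells the 20 became 12 with the fold limit and 15 to 19 without 1 library. In Tspan8pos cells the 1 call became 0 with the fold limit, 3 at an adjusted p of 0.05 and 0 to 2 without 1 library. The interaction gave 6 calls, 11 without the filter on low counts, 13 at 0.05 and 2 to 9 without 1 library. The fits without 1 library leave fewer residual degrees of freedom, and in them the lone library of a subset is assumed to vary like the others. DESeq2 gave 10, 15, 19, 1 and 9 calls in this order. Replicate numbers were not treated as pairing the libraries, since the labels tie them to no shared mouse or day. The correlations of deviations between same-numbered libraries were all positive over the 6 pairs of subsets, from 0.0189 to 0.222, so a shared effect of the number may be present. With a replicate block the calls were 11, 17, 22, 1 and 9, and over all genes the interaction gave 1315 calls in place of 798. Atf4, which passed nowhere, changed sign with library totals between the MHCIIlo subsets (-0.0050) and between the MHCIIhi subsets (-0.020), and without 1 library ranged from -0.034 to 0.37 between the MHCIIlo subsets and from -0.34 to 0.075 between the Tspan8neg subsets. The cause was not tested. No gene that passed reversed its direction under any alternative run. Depth limits Ern2, Trib3 and Creb3l1, which lay under 16 CPM.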
